A study of Sus scrofa with 6 samples.

Results

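The genes described here were 10 symbols of cytotoxic lymphocytes and chemokines, *GNLY*, *NKG7*, *GZMA*, *CD3E*, *CD8A*, *PTPRC*, *CCL5*, *CCL19*, *CXCL12* and *CXCL14*. Matching by symbol in the gene count matrix gave 11 of 30476 gene identifiers, since *GZMA* had a pair of them. The genes *GNLY*, *CCL5*, *CCL19* and *CXCL14* were selected on their measured expression in these same pigs, in which the study showed them as changed, so their values are a description without a p, and the counts of genes past the limits that include them support nothing about them. The other 6 symbols were chosen as markers of the same cells or as a related chemokine, also with earlier results of these data known. The p-values printed for them are thus not those of a choice independent of the data.

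RNA-seq was performed on longissimus dorsi, a muscle of the back, at an age of 6 months. Each of 3 UCP1 KI pigs and 3 WT pigs gave 1 library. UCP1 KI pigs carry an adipocyte-specific knock-in of *UCP1*, the uncoupling protein of thermogenic fat, made with CRISPR/Cas9, whereas WT pigs carry no transgene. The transgene is thus directed to fat cells and not to the muscle that was sequenced. Neither sex nor litter was given in the sources used here, and *UCP1* itself was not analysed here, so the genotype labels were not checked on the targeted gene. Markers of the muscle fibre were abundant in every library, with *ACTA1*, skeletal muscle actin, at 41303 ± 13220 CPM (counts per TMM-scaled library total) in UCP1 KI pigs and 50782 ± 3584 CPM in WT pigs (mean ± SD, n = 3).

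Cytotoxic T cells and natural killer (NK) cells kill infected or altered cells by releasing granules that hold pore-forming proteins and granzymes. Chemokines are small secreted proteins that guide leukocytes through receptors coupled to G proteins. CCL5 attracts effector T cells and is made by these cells too, CCL19 draws naive T cells and mature dendritic cells through CCR7, and CXCL12 and CXCL14 are produced mainly by stromal and epithelial cells. Resting skeletal muscle holds few lymphocytes, so their transcripts form a small fraction of its RNA.

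Gene counts totalled between 30220951 and 35066624 per pig. A gene without reads may still have been present at up to 3 counts, which equalled 0.0795 to 0.11 CPM depending on the pig, counting error alone considered. CPM values were scaled by edgeR's TMM factors, lowest for WT replicate 2 (0.781) and highest for UCP1 KI replicate 2 (1.18). UCP1 KI replicate 2 was the lowest pig for a muscle and a blood transcript. The fast fibre gene *TNNT3* was at 4144 CPM in this pig and at 11937 to 27929 CPM in the others, and *HBB*, a haemoglobin chain of red blood cells, was at 11.3 CPM against 72.4 to 177 CPM. Since this pig was also the highest of all for 6 of the 10 member identifiers that could be tested, values without it are given beside the main results.

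A gene was called when its unadjusted p from edgeR's quasi-likelihood test was under 0.05 and its log2 fold change, UCP1 KI against WT, exceeded 0.5 in either direction. Of 13402 genes tested, 1097 (8.19%) were past both limits, 515 (3.84%) higher and 582 (4.34%) lower in UCP1 KI pigs. After Benjamini-Hochberg adjustment 0 genes had an adjusted p under 0.05 in edgeR, where 1100 had an unadjusted p under 0.05. No adjusted p was smaller than 0.16. By DESeq2 on the same genes, 127 had an adjusted p under 0.05, of which 0 were members. Each p-value weighs the difference between the groups against the spread between these pigs, with the spread of a gene estimated in part from all genes tested.

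Of the 10 member identifiers tested, 4 were past both limits, *GNLY* and *CD3E* with higher and *CXCL12* and *CXCL14* with lower levels in UCP1 KI pigs. Nothing is read from this count against the background, because *GNLY* and *CXCL14* were listed for their change in these pigs. Among the 6 identifiers tested that the study did not show as changed, 2 were past both limits (*CD3E* and *CXCL12*), and their smallest adjusted p was 0.583. The groups overlapped for every tested member, whereas 2047 (15.3%) of all genes tested had no overlap. Without UCP1 KI replicate 2, 0 of the 10 were past both limits. Without UCP1 KI replicate 3, 8 member identifiers were, 6 of them higher. Genes were filtered anew in each such fit, and the 8 include *GZMA* ENSSSCG00000016902, which was not among the 10. The number past both limits was 2, both higher, when UCP1 KI replicate 1 was omitted. It was 2, both lower, of which *CCL19* was not among the 4, when WT replicate 1 was omitted. It was 3, all higher and again including ENSSSCG00000016902, for WT replicate 2 and 1, which was lower, for WT replicate 3. With scaling by library size only, all 4 that passed were higher and 0 were lower.

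**Figure D1:**
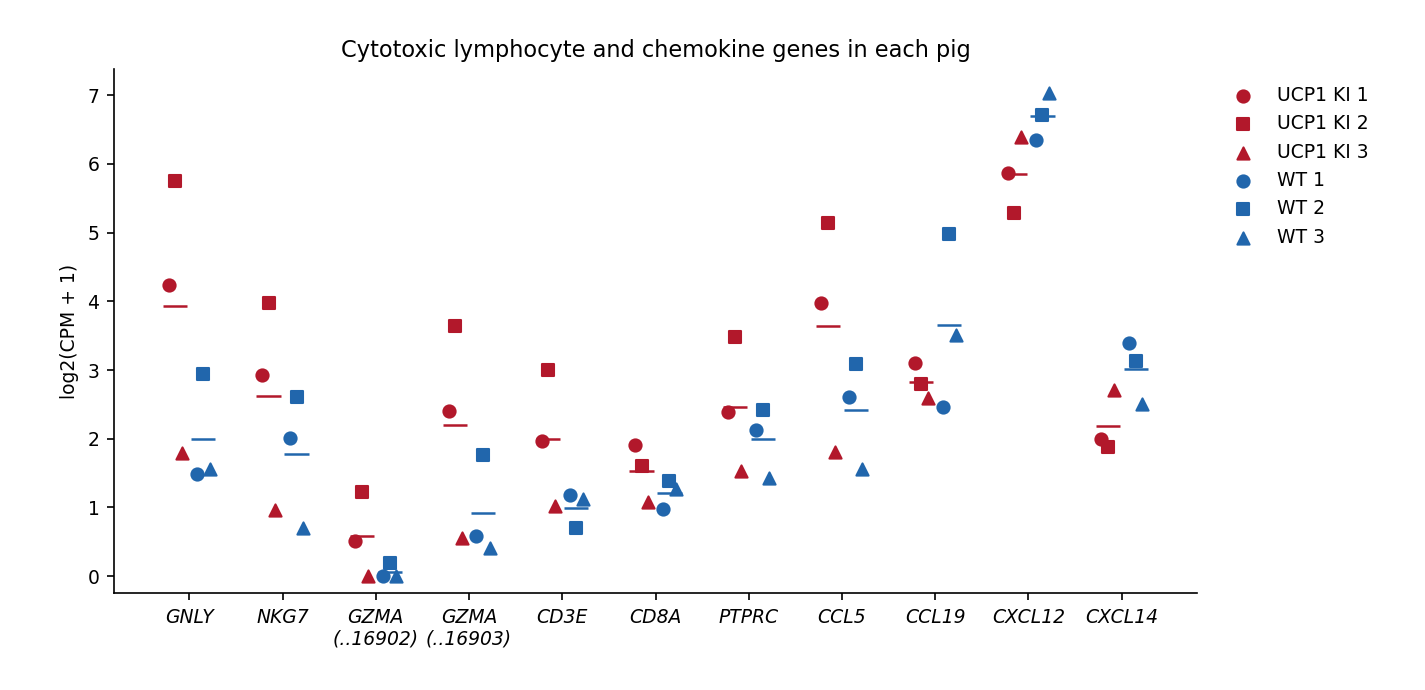
Level of each member in each pig, as log2(CPM + 1), with a symbol per pig (red, UCP1 KI; blue, WT) and a line at the mean of each group. The cytotoxic genes and *CCL5* were highest in UCP1 KI replicates 2 and 1, and UCP1 KI replicate 3 lay within the range of the WT pigs.

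The granule genes differed widely between pigs of 1 group. *GNLY* (ENSSSCG00000008228, chr3:59067327-59072034 in Sscrofa11.1) encodes NK-lysin, the pig counterpart of granulysin, a pore-forming protein of the granules of T and NK cells. It reached 17.9, 52.8 and 2.46 CPM in UCP1 KI replicates 1 to 3, and 1.79, 6.72 and 1.94 CPM in WT replicates 1 to 3. UCP1 KI replicates 1 and 2 lay above all WT pigs, while UCP1 KI replicate 3 lay between WT replicates 2 and 3. The mean was 24.4 ± 25.8 CPM in UCP1 KI pigs and 3.48 ± 2.80 CPM in WT pigs (SD, n = 3), a log2 fold change of 2.81 (SE 1.02). In bulk tissue, more cells of a type and more RNA per cell cannot be told apart. UCP1 KI replicate 2 held 21.4 times the level of UCP1 KI replicate 3, and the SD of log2(CPM + 1) among UCP1 KI pigs exceeded that of 99.5% of genes tested. The log2 fold change of *GNLY* was 1.56 without UCP1 KI replicate 2, 2.48 without WT replicate 1, 2.52 without WT replicate 3 and 3.70 without WT replicate 2.

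*NKG7* (ENSSSCG00000003231, chr6:58496089-58497827), a granule membrane protein needed for granule release, was at 6.60, 14.7 and 0.95 CPM in UCP1 KI replicates 1 to 3 and at 3.03, 5.08 and 0.63 CPM in WT replicates 1 to 3. Its order over the pigs began as that of *GNLY* did, with UCP1 KI replicates 2 and 1 highest and WT replicate 2 next, and UCP1 KI replicate 3 was the lowest but one. *NKG7* had a log2 fold change of 1.35 (SE 0.97) for which edgeR's quasi-likelihood test gave a p of 0.203 (0.722 after adjustment). Without UCP1 KI replicate 2 it was 0.37, and without UCP1 KI replicate 3 it was 1.86 and past both limits.

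*GZMA* encodes granzyme A, a protease that enters the target cell. Both *GZMA* genes lie on chromosome 16, at chr16:34262495-34272084 and chr16:34282160-34290422, and which identifier belongs to which position was not resolved here. Reads of near-identical neighbours may be divided between them, so the value of each is uncertain. The identifier ENSSSCG00000016903 was at 4.30, 11.5 and 0.48 CPM in UCP1 KI replicates 1 to 3 and at 0.50, 2.41 and 0.33 CPM in WT replicates 1 to 3. As for *GNLY*, only UCP1 KI replicates 1 and 2 exceeded WT replicate 2. Its log2 fold change was 2.34 (SE 1.12), with a p of 0.0725 and an adjusted p of 0.63 in edgeR's quasi-likelihood test, and it changed to 1.16 when UCP1 KI replicate 2 was omitted and to 3.69 when WT replicate 2 was. It passed both limits in the latter case, without UCP1 KI replicate 3 (2.87), by DESeq2 (2.33), with library size scaling (2.73) and with all genes of any count (2.36). The identifier ENSSSCG00000016902 was too low to be tested in the main fit, with counts of 13, 48 and 0 in UCP1 KI replicates 1 to 3 and of 0, 4 and 0 in WT replicates 1 to 3. It was tested, and higher past both limits, when UCP1 KI replicate 3 or WT replicate 2 was omitted.

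The surface markers of T cells and leukocytes varied less. *CD3E* (ENSSSCG00000040140, chr9:45619730-45633972), a signalling chain of the T cell receptor complex, was at 2.91, 7.04 and 1.03 CPM in UCP1 KI replicates 1 to 3 and at 1.27, 0.62 and 1.17 CPM in WT replicates 1 to 3. UCP1 KI replicates 1 and 2 were above all WT pigs, and UCP1 KI replicate 3 was within the WT range. Between the groups *CD3E* had a log2 fold change of 1.84 (SE 0.69), with a p of 0.0297 and an adjusted p of 0.583 in edgeR's quasi-likelihood test. *CD3E* was no longer past both limits without UCP1 KI replicate 2 (0.95), WT replicate 1 (2.03), WT replicate 2 (1.58) or WT replicate 3 (1.94).

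*CD8A* (ENSSSCG00000008217, chr3:57999228-58029768), the coreceptor chain of cytotoxic T cells, which pig NK cells also carry, was the most even of the surface markers. It was at 2.75, 2.05 and 1.11 CPM in UCP1 KI replicates 1 to 3 and at 0.96, 1.61 and 1.40 CPM in WT replicates 1 to 3. UCP1 KI replicate 1 was here the highest pig. Its log2 fold change was 0.57 (SE 0.46), with a p of 0.248 and an adjusted p of 0.756 in edgeR's quasi-likelihood test. *PTPRC* (ENSSSCG00000010908, chr10:21482984-21601627), which encodes CD45, the phosphatase carried by all leukocytes, was at 4.24, 10.2 and 1.88 CPM in UCP1 KI replicates 1 to 3 and at 3.39, 4.35 and 1.70 CPM in WT replicates 1 to 3. Only UCP1 KI replicate 2 exceeded every WT pig. Its log2 fold change was 0.79 (SE 0.63), with a p of 0.244 and an adjusted p of 0.752 in the same test, and was -0.046 without UCP1 KI replicate 2.

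To describe these transcripts relative to leukocyte content, the counts were divided by those of *PTPRC* in the same pig. The quotient of *GNLY* was 4.21, 5.17 and 1.31 in UCP1 KI replicates 1 to 3 and 0.528, 1.55 and 1.14 in WT replicates 1 to 3. UCP1 KI replicates 1 and 2 thus remained above all WT pigs after this division, and UCP1 KI replicate 3 remained below WT replicate 2. The quotient of *CCL5* likewise put UCP1 KI replicates 1 and 2 above the WT pigs and UCP1 KI replicate 3 within their range, with 3.49, 3.37 and 1.34 in UCP1 KI pigs against 1.5, 1.72 and 1.14 in WT pigs. That of *CD3E* was 0.687, 0.690 and 0.549 in UCP1 KI pigs against 0.374, 0.143 and 0.686 in WT pigs, so that UCP1 KI replicates 1 and 2 and WT replicate 3 were nearly equal. That of *CD8A* was lower in UCP1 KI replicate 2 (0.201) than in any other pig (0.285 to 0.824).

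*CCL5* (ENSSSCG00000017705, chr12:39652731-39659121), the chemokine of effector T cells, followed the granule genes. It was at 14.8, 34.4 and 2.52 CPM in UCP1 KI replicates 1 to 3 and at 5.07, 7.49 and 1.94 CPM in WT replicates 1 to 3. UCP1 KI replicates 1 and 2 were above all WT pigs and UCP1 KI replicate 3 was above WT replicate 3 alone. The mean was 17.2 ± 16.1 CPM in UCP1 KI pigs and 4.83 ± 2.78 CPM in WT pigs (SD, n = 3). This gave *CCL5* a log2 fold change of 1.83 (SE 0.86), and of 0.84 without UCP1 KI replicate 2.

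*CCL19* (ENSSSCG00000010966, chr10:32110366-32112529) was the one member whose spread lay mainly in the WT pigs. It was at 7.60, 5.92 and 5.01 CPM in UCP1 KI replicates 1 to 3 and at 4.52, 30.6 and 10.4 CPM in WT replicates 1 to 3. WT replicate 2 was the highest pig, and WT replicate 1 was below all UCP1 KI pigs. Between the groups *CCL19* had a log2 fold change of -1.3 (SE 0.63), and of -0.28 without WT replicate 2. The SD of log2(CPM + 1) of *CCL19* was above that of 97.9% of genes in WT pigs and of 47.7% in UCP1 KI pigs.

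*CXCL12* and *CXCL14* had lower means in UCP1 KI pigs. *CXCL12* (ENSSSCG00000034973, chr14:91516383-91543857), a stromal chemokine that retains and recruits CXCR4-bearing cells, was at 57.3, 38 and 82.8 CPM in UCP1 KI replicates 1 to 3 and at 80.7, 104 and 130 CPM in WT replicates 1 to 3. The groups overlapped by the narrow margin between UCP1 KI replicate 3 and WT replicate 1. The log2 fold change of *CXCL12* was -0.82 (SE 0.34), with a p of 0.0431 and an adjusted p of 0.603 in edgeR's quasi-likelihood test. It was not past both limits without UCP1 KI replicate 1 (-0.79), UCP1 KI replicate 2 (-0.59), or either of WT replicates 2 (-0.83) and 3 (-0.64), nor with scaling by library size only (-0.55).

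*CXCL14* (ENSSSCG00000014310, chr2:137803988-137813118), a chemokine of epithelial and stromal cells, was at 2.98, 2.69 and 5.51 CPM in UCP1 KI replicates 1 to 3 and at 9.54, 7.78 and 4.67 CPM in WT replicates 1 to 3. UCP1 KI replicate 3 was above WT replicate 3, and the other UCP1 KI pigs were below all WT pigs. *CXCL14* had a log2 fold change of -0.97 (SE 0.40). Leaving out single pigs gave values from -0.75, without WT replicate 1, to -1.38, without UCP1 KI replicate 3.

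**Figure D2:**
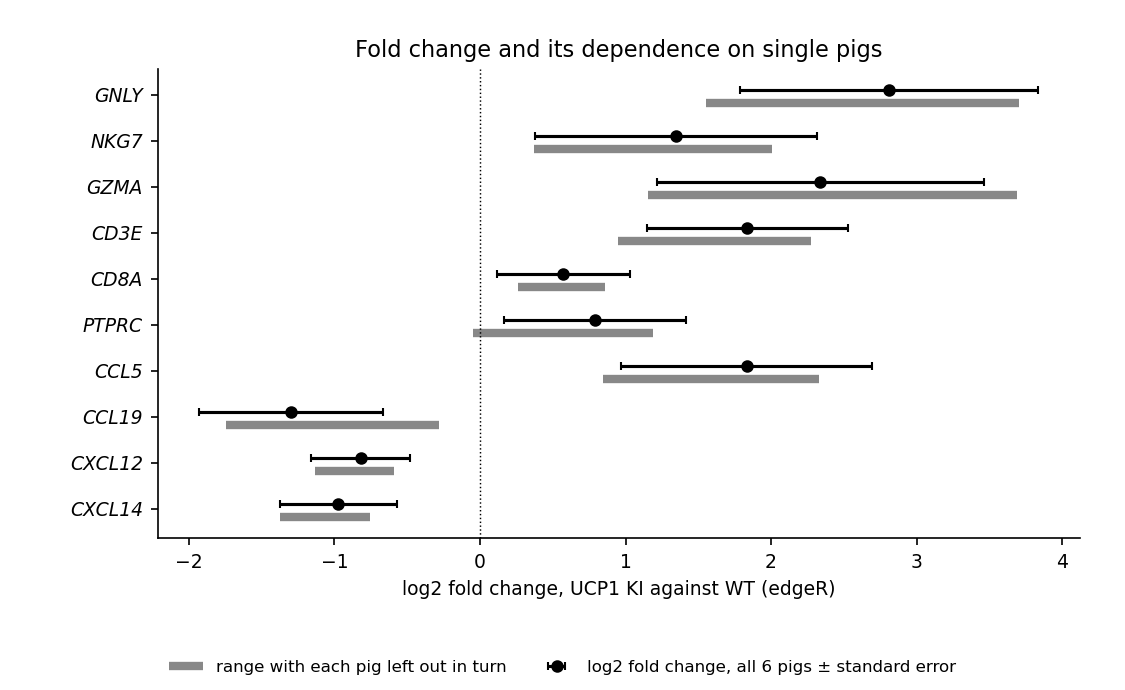
Log2 fold change of each tested member, UCP1 KI against WT, from edgeR with all 6 pigs (point, with a bar of ± 1 standard error) and the range of the value when each pig was left out in turn (grey bar). The range of *PTPRC* reached below 0, and that of *GNLY* ran from 1.56 to 3.70.

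To ask how far the single genes stood for their cell types, longer gene lists were examined with the same fit. These lists were chosen with earlier results of these data known. The cytotoxic list held 26 symbols, of which 21 were found, and 16 identifiers were tested. Of these, 6 (37.5%, against 3.84% of all genes tested) were higher past both limits and 0 were lower. A positive log2 fold change was found in 15, and the median over the 16 was 1.52 against -0.02 over all genes tested. The members *GNLY*, *NKG7* and *GZMA* belong to this list, so it is not independent of them. Leaving *GNLY* aside, 5 of 15 (33.3%) were higher past both limits, with a median of 1.35. Without UCP1 KI replicate 2, 0 of the 16 were past both limits. The count was 14 without UCP1 KI replicate 3, 3 without WT replicate 1, 1 without WT replicate 3 and 2 when each pig had to have 10 counts or more of a gene. Each of these fits filtered its genes anew, so the counts are not all out of the same 16. The 14 include *GZMA* ENSSSCG00000016902, which was not among the 16.

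Besides *GNLY*, the cytotoxic genes past both limits were *CST7*, *CD226*, *PRF1*, *GZMH* and *XCL1*. *PRF1*, which encodes the pore-forming perforin, was at 2.68, 6.31 and 0.238 CPM in UCP1 KI replicates 1 to 3 and at 0.579, 0.511 and 0.200 CPM in WT replicates 1 to 3. It was high in the same pigs as *GNLY*, with UCP1 KI replicate 3 again within the WT range. Its log2 fold change was 2.82 (SE 1.02), with an adjusted p of 0.583 in edgeR's quasi-likelihood test. *GZMH*, another granzyme, was at 3.36, 12.1 and 0.689 CPM in UCP1 KI pigs and at 0.606, 1.61 and 0.701 CPM in WT pigs, with a log2 fold change of 2.48 (SE 0.95). *XCL1*, the chemokine lymphotactin of activated NK and CD8 T cells, had a log2 fold change of 1.68 (SE 0.68).

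*CST7* and *CD226* were the called cytotoxic genes in which UCP1 KI and WT pigs did not overlap. In WT replicates 1 to 3 they had counts of only 8, 5 and 6 (*CST7*) and of 11, 11 and 4 (*CD226*). With so few counts in WT pigs, both passed the filter through the UCP1 KI pigs, where they are high. Their direction and lack of overlap are thus a description only. *CST7* encodes cystatin F, an inhibitor of the proteases that activate granzymes, and was at 1.13, 2.64 and 0.291 CPM in UCP1 KI replicates 1 to 3 and at 0.183 to 0.221 CPM in WT pigs. *CD226*, an activating receptor of T and NK cells, was at 1.13, 2.24 and 0.477 CPM in UCP1 KI replicates 1 to 3 and at 0.133 to 0.402 CPM in WT pigs. UCP1 KI replicate 3 exceeded the highest WT pig by little in both genes. Their log2 fold changes were 2.72 (SE 0.82) and 2.19 (SE 0.72), each with an adjusted p of 0.583 in edgeR's quasi-likelihood test. *SRGN*, the granule proteoglycan serglycin, which many other leukocytes and endothelial cells express as well, was the tested gene of the list with a negative log2 fold change (-0.22, SE 0.55).

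**Figure D3:**
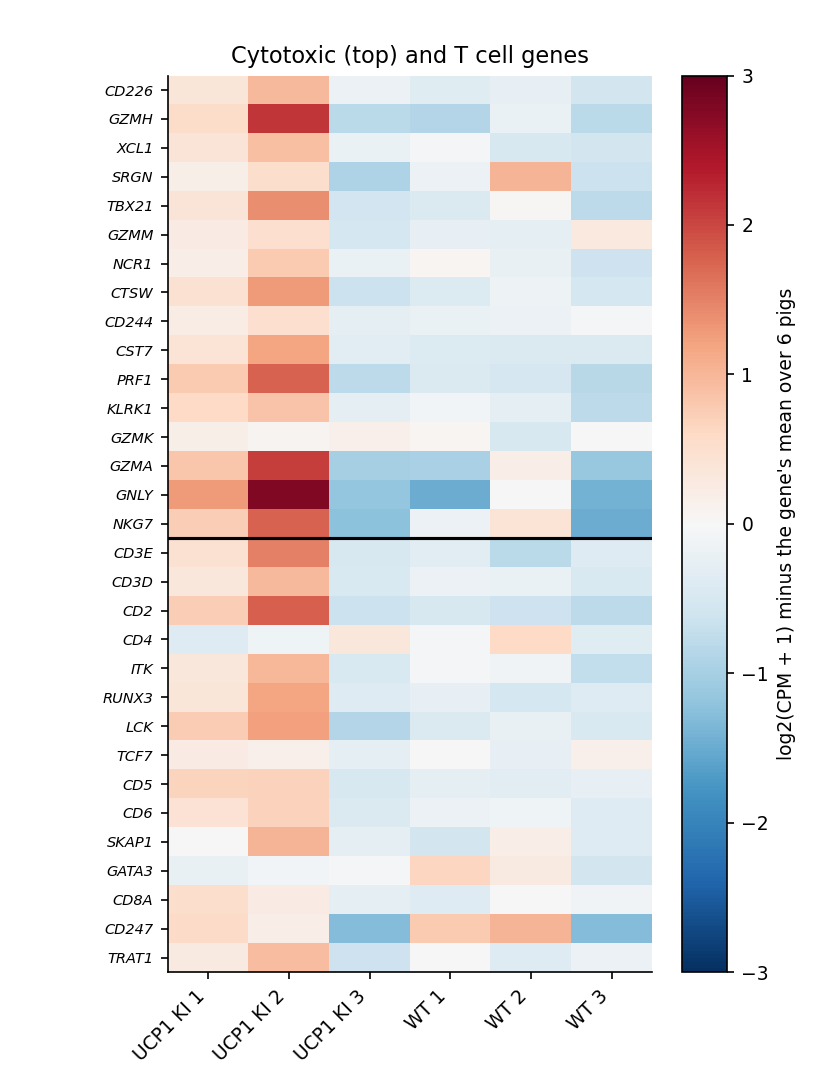
Heat map of the tested genes of the cytotoxic list (above the black line) and of the T cell list (below it) in each pig, coloured by log2(CPM + 1) minus the mean of the gene over the 6 pigs. The column of UCP1 KI replicate 2 was the highest in 14 of 16 cytotoxic and 10 of 15 T cell genes.

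The T cell list pointed to the same pigs. Of its 27 symbols 22 were found and 15 were tested. Of the tested genes, 3 (20%, against 3.84% of all genes tested) were higher past both limits with 0 lower, at a list median log2 fold change of 1.44. Besides *CD3E* these were *CD2*, an adhesion receptor of T and NK cells, with a log2 fold change of 2.50 (SE 0.80), and *RUNX3*, a transcription factor of CD8 T cells, with 2.02 (SE 0.77). *CD2* was at 3.46, 8.19 and 0.715 CPM in UCP1 KI replicates 1 to 3 and at 0.910, 0.730 and 0.534 CPM in WT replicates 1 to 3. *CD4*, the helper T cell coreceptor that plasmacytoid dendritic cells express too, had a log2 fold change of -0.33 (SE 0.89). The most abundant genes of the list, *GATA3* and *CD247*, had log2 fold changes of -0.37 and -0.60 and were not past the limits. The count of 3 became 0 without UCP1 KI replicate 2 and 9 without UCP1 KI replicate 3, and it was 1 when WT replicate 1 was omitted. When WT replicate 3 was omitted, 0 were higher and 1 was lower.

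Over the 24 tested genes of the pan-leukocyte list, 1 (4.17%, against 3.84% of all genes tested), the small GTPase *RAC2* of blood cells, was higher past both limits. None was lower, while 21 had a positive log2 fold change. The list median was 0.76, or 0.13 without UCP1 KI replicate 2. *RAC2* had a log2 fold change of 1.14 (SE 0.46) and an adjusted p of 0.603 in edgeR's quasi-likelihood test. UCP1 KI replicate 2 was the highest pig for 23 of the 24 genes, against 17.1% of all genes tested. Without UCP1 KI replicate 3 the count of genes past both limits was 12, it was 2 without WT replicate 1, and it was 0 without either of UCP1 KI replicates 1 and 2 or WT replicate 3. Scaling by library size only gave 6.

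The summed level of the cytotoxic list was 70.7, 154 and 19.2 CPM in UCP1 KI replicates 1 to 3 and 27.7, 51.0 and 19.3 CPM in WT replicates 1 to 3. UCP1 KI replicate 3 and WT replicate 3 were nearly equal, while UCP1 KI replicate 2 was at 4.72 times the mean of the WT pigs. The pan-leukocyte list had 205, 281 and 116 CPM in UCP1 KI replicates 1 to 3 and 155, 208 and 124 CPM in WT replicates 1 to 3. Expressed as a share of the pan-leukocyte sum, the cytotoxic sum was 34.4%, 54.9% and 16.5% in UCP1 KI pigs against 17.8%, 24.5% and 15.6% in WT pigs. *GNLY*, listed for its change in these pigs, held much of this sum, and without it the shares were 25.7%, 36.1% and 14.4% in UCP1 KI pigs against 16.7%, 21.2% and 14% in WT pigs. This share differed less between the pigs for T cell genes, at 11.9% to 18.8% in UCP1 KI pigs against 10% to 16.0% in WT pigs. *GATA3* and *CD247*, the most abundant genes of the T cell list, held 10.6 and 4.93 of its 24.9 CPM in WT replicate 1. In UCP1 KI replicate 2 they held 6.00 and 2.9 of 52.7 CPM. The T cell share thus depends on this pair and does not describe the rest of the list. In the pan-leukocyte sum, *HCLS1* was at 52.392, 23.98 and 54.035 CPM in UCP1 KI replicates 1 to 3. It was at 34.872, 72.055 and 51.857 CPM in WT replicates 1 to 3. *HCLS1* was thus a large part of this sum in replicate 3 of both groups and a small part in UCP1 KI replicate 2. The differences between pigs in the cytotoxic and T cell shares depend in part on *HCLS1*, and shares without it were not computed.

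**Figure D4:**
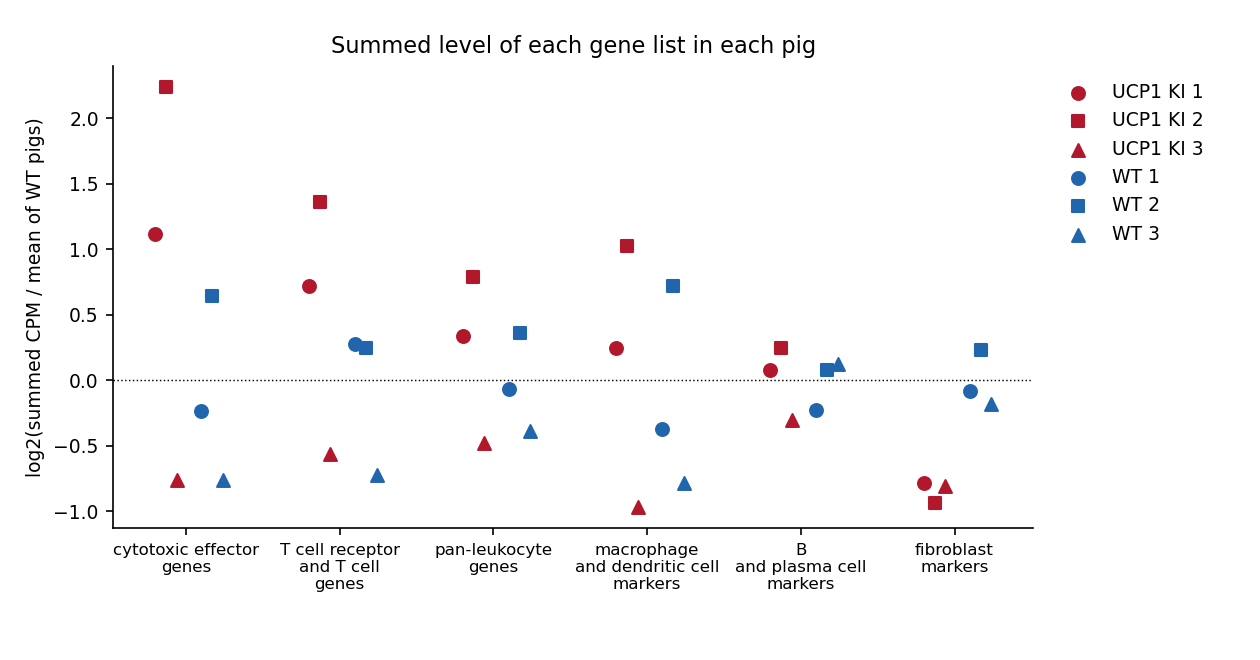
Summed CPM of 6 gene lists in each pig, on a log2 scale relative to the mean of the 3 WT pigs (dotted line at 0; red, UCP1 KI; blue, WT). The cytotoxic sum spread most among UCP1 KI pigs, from 0.588 to 4.72 times the WT mean, and the fibroblast sum was the one list of the 6 in which the groups did not overlap.

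Markers of other cells were examined beside these values. Macrophage and dendritic cell markers summed to 126, 215 and 54.1 CPM in UCP1 KI replicates 1 to 3 against 82, 174 and 61.5 CPM in WT replicates 1 to 3, so UCP1 KI replicate 2 and WT replicate 2 were highest. Of 13 tested, 0 were past both limits, and the median log2 fold change was 0.31, which ran from -0.24 without UCP1 KI replicate 2 to 0.91 without WT replicate 2. Without UCP1 KI replicate 3, 1 marker of this list was higher past both limits. B and plasma cell markers summed to 86.7 to 127 CPM in UCP1 KI pigs and 91.3 to 117 CPM in WT pigs, with 0 of 7 past both limits and a median of 0.02, which ran from -0.62 without UCP1 KI replicate 2 to 0.47 without WT replicate 1. In the latter case 2 markers of that list were higher past both limits. Neutrophil and mast cell markers also had 0 of 3 past both limits, with a median of -0.16, which was 0.46 without WT replicate 3 and 0.23 without WT replicate 2, where 1 was higher past both limits. The part of these cells in the lymphocyte values was not tested.

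Of 11 fibroblast markers, 5 were lower past both limits without overlap between the groups, and 2 had a positive log2 fold change. Over all genes tested, 4.34% were lower past both limits and 15.3% had no overlap in either direction. The 5 lower markers were *COL1A1* (log2 fold change -1.86), *COL1A2* (-1.70), *COL3A1* (-1.57), *FAP* (-0.91) and *LUM* (-0.57), genes of the collagen matrix and of activated fibroblasts. That collagen genes were lower was known from earlier results of these data when the list was written. The count of 5 was 2 without WT replicate 2, and 3 when either of UCP1 KI replicates 1 and 2 or WT replicate 1 was omitted. The list summed to 746 to 833 CPM in UCP1 KI pigs and 1263 to 1679 CPM in WT pigs. Of 8 mural cell markers, *NOTCH3* (-1.02) and *ABCC9* (-0.74) were lower past both limits, and the list median was -0.80. Neither was called when either of UCP1 KI replicates 1 and 2 or WT replicate 1 was omitted, and 5 of the 8 were lower without WT replicate 3. Whether fewer stromal cells accompanied the lower *CXCL12* and *CXCL14* was not tested.

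Among other vessel and tissue markers, 1 of 9 endothelial genes was past both limits, the angiopoietin receptor *TEK*, higher with a log2 fold change of 1.2. Of 7 lymphatic endothelial genes *PDPN* was higher (0.94) and *FLT4*, the VEGF receptor of lymphatic vessels, was lower (-1.16), while 1 of the 7 had a positive log2 fold change and the median was -1.05. Without WT replicate 2, 0 of these were called, and without any 1 of the UCP1 KI pigs 1 was. Of 6 adipocyte genes the lipases *LIPE* (1.12) and *PNPLA2* (0.57) were higher, although the list median was -0.96. That median was -0.016 without WT replicate 2, and 1 gene was called when any pig but WT replicate 1 was omitted. Without WT replicate 1, 4 were called, 2 higher and 2 lower. All 4 tested red blood cell genes had a negative log2 fold change, with a median of -1.37, and 1, *HBM*, was lower past both limits (-1.45), or 0 when replicate 3 of either group or WT replicate 1 was omitted. This list summed to 11.6 to 76.5 CPM in UCP1 KI pigs and to 106 to 181 CPM in WT pigs, without overlap. The number past both limits was 0 among 6 Schwann cell, 5 satellite cell and 6 skeletal muscle fibre genes, with 1 Schwann cell gene past them when WT replicate 1 was omitted.

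The wider chemokine family showed no single direction. Of 35 ligand symbols 25 were found and 19 tested, of which 1 was higher (*XCL1*) and 3 were lower (*CXCL2*, *CXCL12* and *CXCL14*) past both limits, with a median log2 fold change of -0.10. *CXCL2*, a neutrophil chemoattractant, was at 29.8, 19.7 and 22.6 CPM in UCP1 KI replicates 1 to 3 and at 25.3, 52.1 and 49.1 CPM in WT replicates 1 to 3. WT replicate 1 lay inside the UCP1 KI range. *CXCL2* had a log2 fold change of -0.81 (SE 0.33), with a p of 0.0402 and an adjusted p of 0.603 in edgeR's quasi-likelihood test. *CCL21*, which shares CCR7 with *CCL19*, was at 1.46, 5.67 and 1.3 CPM in UCP1 KI replicates 1 to 3 and at 6.12, 8.25 and 3.10 CPM in WT replicates 1 to 3, with a log2 fold change of -1.05 (SE 0.64) that was not past the limits. *CCL2*, the monocyte chemoattractant, spanned 1.67 to 90.7 CPM in UCP1 KI pigs and 8.51 to 72.0 CPM in WT pigs. Leaving aside *CCL5*, *CCL19* and *CXCL14*, 1 of 16 was higher and 2 were lower. The direction of the ligands turned with single pigs and with scaling. Without WT replicate 2 the median was 1.065 and the 4 called ligands were all higher, and with scaling by library size only the 2 called were both higher. The count of 4 ligands was 1 without either of UCP1 KI replicates 1 and 2 or WT replicate 3.

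Of 23 receptor symbols 19 were found and 13 tested, and 0 were past both limits, with a median log2 fold change of 0.41, or -0.087 without UCP1 KI replicate 2. Among receptors of CCL5, the log2 fold change was -0.50 (SE 0.96) for *CCR1* and 1.41 (SE 0.80) for *CCR3*. *CCR3* was at 0.906, 2.92 and 0.291 CPM in UCP1 KI replicates 1 to 3 and at 0.662, 0.438 and 0.434 CPM in WT replicates 1 to 3. UCP1 KI replicates 1 and 2 were again the highest pigs, and UCP1 KI replicate 3 was the lowest. *CCR7*, the receptor of CCL19, had counts of 9, 21 and 0 in UCP1 KI replicates 1 to 3 and of 12, 8 and 6 in WT replicates 1 to 3 and was not tested. The CXCL12 receptors *CXCR4* and *ACKR3*, the latter a scavenger, had log2 fold changes of 0.58 (SE 0.49) and -0.38 (SE 0.44). *ACKR1*, the scavenger of venules and red cells, was the most abundant receptor gene and spanned 7 to 84.4 CPM among WT pigs. Without UCP1 KI replicate 3, 4 receptors were past both limits, and without WT replicate 1, 3 were.

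Genes that transmit chemokine signals were called about as often as genes in general. Of 103 tested, 6 were higher and 2 lower past both limits (7.77%), with a median log2 fold change of 0.12. The 6 with the smallest p were *PIK3CA* (1.35), *NFKBIB* (0.74), *FOXO3* (0.84) and *GSK3B* (0.94), which were higher, and *ROCK2* (-0.77) and *ADCY3* (-0.89), which were lower. *PIK3CA*, a catalytic subunit of phosphoinositide 3-kinase, was at 17.8, 30.6 and 17.6 CPM in UCP1 KI replicates 1 to 3 and at 10.9, 6.43 and 8.51 CPM in WT replicates 1 to 3. The groups did not overlap, and the adjusted p was 0.558 in edgeR's quasi-likelihood test. Like *FOXO3* and *GSK3B*, *PIK3CA* also serves insulin signalling in muscle fibres. In place of 8, 3 were past both limits when UCP1 KI replicate 2 was left out and 4 when WT replicate 2 was.

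**Figure D5:**
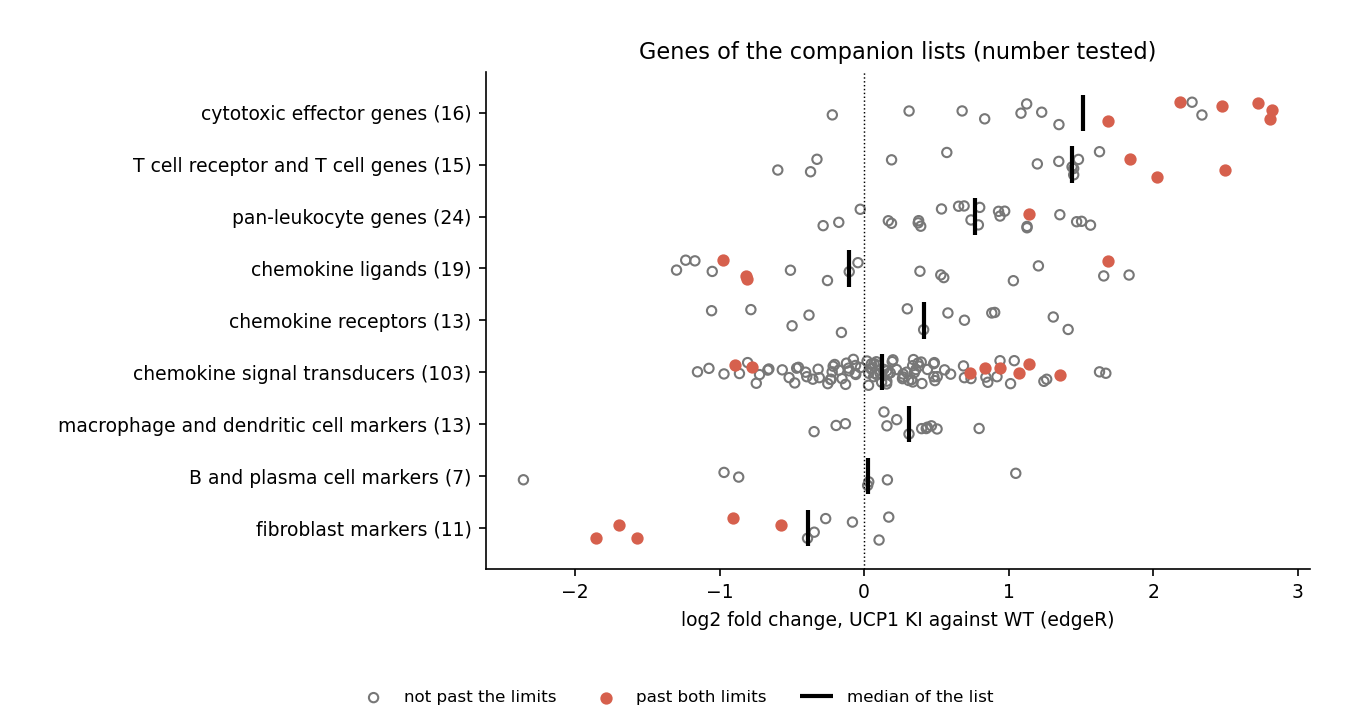
Log2 fold change, UCP1 KI against WT, of each tested gene of 9 gene lists (points; filled, past both limits) with the median of each list (black bar) and the number of genes tested in parentheses. Medians were 1.52 for cytotoxic, 1.44 for T cell and 0.76 for pan-leukocyte genes, and -0.39 for fibroblast markers.

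Of the cytokines and receptors of T and NK cells, 9 of 23 found were tested and 2 were higher past both limits. *IL2RB*, the beta chain of the interleukin 2 and 15 receptors, was at 3.17, 8.98 and 1.03 CPM in UCP1 KI replicates 1 to 3 and at 1.57, 0.694 and 0.734 CPM in WT replicates 1 to 3. Its log2 fold change was 2.12 (SE 0.77), with UCP1 KI replicates 1 and 2 highest. *LTBR*, the lymphotoxin beta receptor of stromal cells, was at 34.9 to 49.8 CPM in UCP1 KI pigs and 26.1 to 33.1 CPM in WT pigs without overlap, with a log2 fold change of 0.62 (SE 0.24). Of the genes of this list, 0 were called when UCP1 KI replicate 2 was omitted, 0 when WT replicate 3 was, 1 when replicate 1 of either group or WT replicate 2 was, and 4, all higher, when UCP1 KI replicate 3 was. *LTBR* was also the 1 gene past both limits among 6 tested lymphoid homing genes. Their median of 0.18 was -0.26 without UCP1 KI replicate 2, 0.64 without UCP1 KI replicate 3 and -0.51 when each pig had to have 10 counts or more of a gene. The 1 gene past both limits was lower when UCP1 KI replicate 2 was omitted, and likewise for WT replicate 1. None passed them without UCP1 KI replicate 1 or when WT replicate 3 was omitted.

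The genes most like the members over the 6 pigs were sought by the Pearson correlation of log2(CPM + 1) among 10143 genes with a symbol and a mean of at least 1 CPM. This is a description of 6 libraries that share their differences between pigs. *GNLY* was most like *GZMA* (0.994), *LCP1* (0.989), the actin-bundling protein of leukocytes, and *LY86* (0.988), a cofactor of a receptor of B and myeloid cells. *CCL5* was most like *ARHGAP4* (0.996), *WDR89* (0.995) and *PTPN6* (0.992), the phosphatase of blood cells. *CXCL12* was most like *TRDN* (0.991), a protein of the calcium release unit of muscle fibres, *BMPER* (0.989) and *INTS12* (0.987). *CXCL14* was most like *ENPP2* (0.987), which makes lysophosphatidic acid, *MTRF1L* (0.984) and *CUL7* (0.984).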

How the data were processed

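RNA from longissimus dorsi of 3 UCP1 KI and 3 WT pigs was sequenced with 1 library per pig. The authors extracted RNA with TRIzol and, per the submitters' processing notes, used FastQC 0.11.2, Trimmomatic 0.36, HISAT2 2.0, StringTie 1.3.3b, bedtools 2.26.0 and DESeq2 1.12.4 with the build Sscrofa11.1. They deposited raw counts of reads per gene without normalization. The annotation release and the program that counted reads are not given in the sources used here.

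Differences were fitted with edgeR 4.0.16 under R 4.3.3 (filterByExpr by group, TMM, quasi-likelihood F test, two-sided, no covariate), and p-values were adjusted by Benjamini-Hochberg over all genes tested. The limits were a p under 0.05, used here unadjusted, and a log2 fold change above 0.5. The study gives the same cut-offs without saying whether its p was adjusted. Counts scaled to CPM use TMM, and log2 values a pseudocount of 1 CPM. With 3 pigs against 3 an exact permutation test cannot go below 0.1. A table of Ensembl names gave 14864 identifiers a symbol, and positions, matched by symbol, came from the RefSeq annotation of Sscrofa11.1.

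Named genes were the members, list genes past both limits (6 at most of the signal transducers), the receptors of the member chemokines, *CCL21*, up to 2 most abundant genes of each list and the 3 genes most like *GNLY*, *CCL5*, *CXCL12* and *CXCL14*. *CD4*, the chemokines and receptors of the closing section and others outside this rule were named as list members after their values were seen. Not every gene under this rule is reported here. The members and the 20 lists were chosen with earlier results of these data known. The procedure was tested on simulated data. Samples of the same number did not deviate together in all pairs (correlations 0.0038, 0.0943 and 0.283), so the numbers were not taken to pair pigs. The alternatives were DESeq2 1.42.0, median-of-ratios or library size scaling, other filters, the replicate number as a block, other limits and each pig left out. With a pig left out the genes were filtered anew, so the genes tested are not the same in every fit.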

Additional observations from a re-analysis of the deposited data

How the results depend on the processing

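With 3 pigs a group, each call of a member was lost without at least 1 of the pigs, and 0 genes, thus 0 members, had an adjusted p under 0.05 in edgeR. Over the alternatives, 92 of the log2 fold changes of members kept direction and side of the limits, 22 fell short of them, 15 passed them and 1 reversed (*PTPRC*, whose values ran from -0.046 without UCP1 KI replicate 2 to 1.19 without UCP1 KI replicate 3). Leaving out each pig gave 678 to 1541 genes, 0 to 8 members, 0 to 14 cytotoxic, 0 to 9 T cell, 0 to 12 pan-leukocyte, 1 to 5 ligand, 0 to 4 receptor and 3 to 12 transducer genes past both limits, and list medians of 0.90 to 2.57 for cytotoxic, 0.66 to 1.92 for T cell, 0.13 to 1.15 for pan-leukocyte and -0.67 to -0.38 for fibroblast genes. Leaving out UCP1 KI replicate 2 and WT replicate 2 together, an alternative chosen after seeing the data, gave 421 genes, 1 member, 1 cytotoxic, 0 T cell, 0 pan-leukocyte, 1 ligand and 3 transducer genes. DESeq2 gave 7 members, 3 pan-leukocyte, 1 receptor and 13 transducer genes. All genes with any count gave 5 T cell, 2 pan-leukocyte and 2 receptor genes, and at least 10 counts in every pig gave 2 cytotoxic genes and 1 receptor. Library size only gave 5 T cell, 6 pan-leukocyte, 2 ligand and 1 receptor genes, and raised the median of all genes from -0.02 to 0.24, with 929 of 1124 genes higher in place of 515 of 1097. The replicate block gave 1114 genes, 5 members, 10 cytotoxic, 1 T cell, 4 pan-leukocyte and 1 receptor genes, and in the blocked fit *CD3E* (1.47) was not past both limits whereas *NKG7* (1.11) and *GZMA* (2.07) were. Not every pig correlated best with the pig of its own number. The causes of these shifts were not tested.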

Other observations

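The chemokines that interferon induces, which share the receptor CXCR3 of activated T and NK cells, had another order of pigs than *CCL5*. For *CXCL9* the order differed from that of *CCL5* only in that WT replicates 1 and 3 changed places. The genes of this section were named after their values were seen. *CXCL9* was at 28.5, 71.9 and 2.65 CPM in UCP1 KI replicates 1 to 3 and at 1.76, 26.7 and 4.20 CPM in WT replicates 1 to 3. *CXCL10* was at 20.5, 97.5 and 2.49 CPM in UCP1 KI replicates 1 to 3 and at 0.992, 54.8 and 3.17 CPM in WT replicates 1 to 3. UCP1 KI replicate 2 was highest in both, and WT replicate 2 was close to or above UCP1 KI replicate 1. The log2 fold changes were 1.66 (SE 1.23) for *CXCL9*, 1.03 (SE 1.53) for *CXCL10* and 1.21 (SE 1.40) for *CXCL11*, and none of these was past both limits. *CXCR3* itself had counts of 18, 27 and 6 in UCP1 KI replicates 1 to 3 and of 4, 4 and 2 in WT replicates 1 to 3. It was too low to be tested. Every UCP1 KI pig had more counts than any WT pig, but only by 6 counts against 4, and 15.3% of all genes tested had no overlap.

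*XCR1*, the receptor of XCL1 on the dendritic cells that present antigen to CD8 T cells, was at 4.85, 8.58 and 1.80 CPM in UCP1 KI replicates 1 to 3 and at 2.98, 2.12 and 1.03 CPM in WT replicates 1 to 3. UCP1 KI replicates 1 and 2 were highest, as for its ligand gene *XCL1* (1.42, 2.50 and 0.636 CPM against 0.799, 0.329 and 0.267 CPM). The log2 fold change of *XCR1* was 1.31 (SE 0.62), with a p of 0.0675 and an adjusted p of 0.622 in edgeR's quasi-likelihood test, and was not past both limits. *FASLG*, the death ligand of cytotoxic cells, had counts of 10, 30 and 0 in UCP1 KI replicates 1 to 3 and of 3, 0 and 0 in WT replicates 1 to 3, too few for a test.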
